A study of Rattus norvegicus with 12 samples.

Results

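The IGF axis was described here by 10 genes in cultured rat fibroblast-like synoviocytes (FLS), the lining cells of the synovium. They were the ligands Igf1 and Igf2, the receptors Igf1r and Igf2r, and the binding proteins Igfbp2, Igfbp3, Igfbp4, Igfbp5, Igfbp6 and Igfbp7. Each gene was taken as the record of the expression table that carries its name. Igfbp7 had 2 such records, of which the one with the higher mean was used. All 10 were found among 22442 gene records.

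The FLS were third-passage cells from the synovium of male SD rats with adjuvant arthritis (AA), which is set off by an injection of complete Freund's adjuvant. Every group, the control included, came from arthritic rats, so no healthy synovium was compared. The FCA group received medium (DMEM) alone. The AT10, AT1 and AT01 groups received taurochenodeoxycholic acid (TCDCA), a taurine-conjugated bile acid, at 10, 1 and 0.1 µM for 12 h. Each of the 4 groups had 3 poly(A) RNA libraries, 12 in all. The study asked which transcripts TCDCA alters in these cells. No label says whether the libraries of a group came from separate rats or cultures, so the p-values below measure only the spread between libraries.

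IGF1 and IGF2 are small growth factors that signal through IGF1R, a receptor tyrosine kinase linked to the PI3K-AKT and MAPK pathways. IGF2R, which is also the cation-independent mannose-6-phosphate receptor, takes up and clears IGF2 and carries lysosomal enzymes. The IGF binding proteins hold the ligands in the extracellular space, and proteases such as PAPP-A cut them and release the ligand. In joints the axis is known for its support of cartilage matrix synthesis and of synovial fibroblast growth.

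The promoters of 4 members are shown first, each as the 250 bases before the start that RefSeq annotates on the rat build GRCr8, 5′ to 3′ on the strand of the gene. Igfbp6 and Igf1r are shown because they had the lowest unadjusted p-values below, Igfbp7 because it had the highest level, and Igfbp5 because its level was under 1 FPKM. Capitals mark any of 4 motifs searched. AGAACA is a half-site of the glucocorticoid receptor element, TGACG a half-site of the cAMP response element and GGGCGG the GC box. These were searched on both strands, and TATAAA (the TATA box) on the strand of the gene. In the promoters of the members, no match overlapped a match of another motif. The Igfbp6 promoter lies at chr7:135154669-135154918 on the plus strand, the Igf1r promoter at chr1:130959747-130959996 on the plus strand, the Igfbp7 promoter at chr14:31091486-31091735 on the plus strand and the Igfbp5 promoter at chr9:81914188-81914437 on the minus strand.
Igfbp6: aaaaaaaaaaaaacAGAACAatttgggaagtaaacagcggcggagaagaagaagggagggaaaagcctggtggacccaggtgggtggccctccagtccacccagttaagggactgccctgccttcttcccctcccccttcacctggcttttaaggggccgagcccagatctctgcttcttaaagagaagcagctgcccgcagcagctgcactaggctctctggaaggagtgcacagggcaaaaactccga
Igf1r: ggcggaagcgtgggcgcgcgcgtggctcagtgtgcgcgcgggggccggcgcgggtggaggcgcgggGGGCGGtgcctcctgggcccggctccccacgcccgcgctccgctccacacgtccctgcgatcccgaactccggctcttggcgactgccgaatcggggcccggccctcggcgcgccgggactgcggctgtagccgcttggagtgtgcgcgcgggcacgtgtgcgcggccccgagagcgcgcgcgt
Igfbp7: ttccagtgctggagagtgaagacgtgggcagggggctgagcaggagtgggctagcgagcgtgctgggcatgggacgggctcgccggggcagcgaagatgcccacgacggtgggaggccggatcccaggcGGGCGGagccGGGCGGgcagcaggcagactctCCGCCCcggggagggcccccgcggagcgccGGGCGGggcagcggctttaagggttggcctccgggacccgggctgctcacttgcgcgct
Igfbp5: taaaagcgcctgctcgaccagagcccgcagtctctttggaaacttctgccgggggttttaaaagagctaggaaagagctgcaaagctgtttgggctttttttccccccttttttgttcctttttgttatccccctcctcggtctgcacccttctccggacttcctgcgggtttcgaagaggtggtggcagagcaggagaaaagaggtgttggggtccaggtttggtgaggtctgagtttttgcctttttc

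The Igfbp6 promoter held 1 AGAACA, whose first base lay at -236 from the start, and none of the other motifs. Among the members, only Igfbp6 and Igf1 held this hexamer, in Igf1 at -55, and 17.5% of all 33469 RefSeq promoters of the same length held it. The Igfbp7 promoter held 4 GC boxes and the Igf1r promoter 1, a motif found in 30.5% of all promoters. The GC box was also found in the promoters of Igf2r and Igfbp2 and in 1 promoter of Igf2. The Igfbp5 promoter held none of the 4 motifs. TGACG was found in the promoter of Igf2r alone, at 2 places, against 18.2% of all promoters, and TATAAA in that of Igfbp4 alone, at -40, against 8.06%. The promoters also differed in base composition. That of Igf1r was 79.6% G and C, that of Igfbp7 74.4%, that of Igfbp6 54.8% and that of Igfbp5 51.6%, where the median of all promoters was 51.2%. A match describes the letters only. Whether any factor bound there was not measured.

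In level, the transcripts of the axis in FLS were mainly those of binding proteins and of Igf2r. The values are FPKM (fragments per kilobase of transcript, scaled to the mapped fragments of the library), which are scaled by length and so can be set side by side between genes. Over the 12 libraries the mean FPKM was 105.1 ± 6.99 (SD, n = 12) for Igfbp7, 52.8 ± 12.2 for Igfbp4, 47.9 ± 5.15 for Igf2r, 42.6 ± 6.91 for Igfbp3, 14.8 ± 2.31 for Igfbp6, 8.04 ± 0.703 for Igf1 and 7.15 ± 1.78 for Igf1r. Igfbp7 was the 470th of all records by mean FPKM and Igf2r the 1076th. Igfbp5, Igfbp2 and Igf2 stood far lower, at 0.432 ± 0.278, 0.152 ± 0.0918 and 0.0600 ± 0.0328 FPKM. The order was not settled at every place. The ranges over libraries did not overlap between Igfbp7 and Igfbp4, between Igfbp3 and Igfbp6, between Igfbp6 and Igf1 or between Igf1r and Igfbp5. They overlapped between Igfbp4 and Igf2r, Igf2r and Igfbp3, Igf1 and Igf1r, and among the 3 genes under 1 FPKM.

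**Figure D1:**
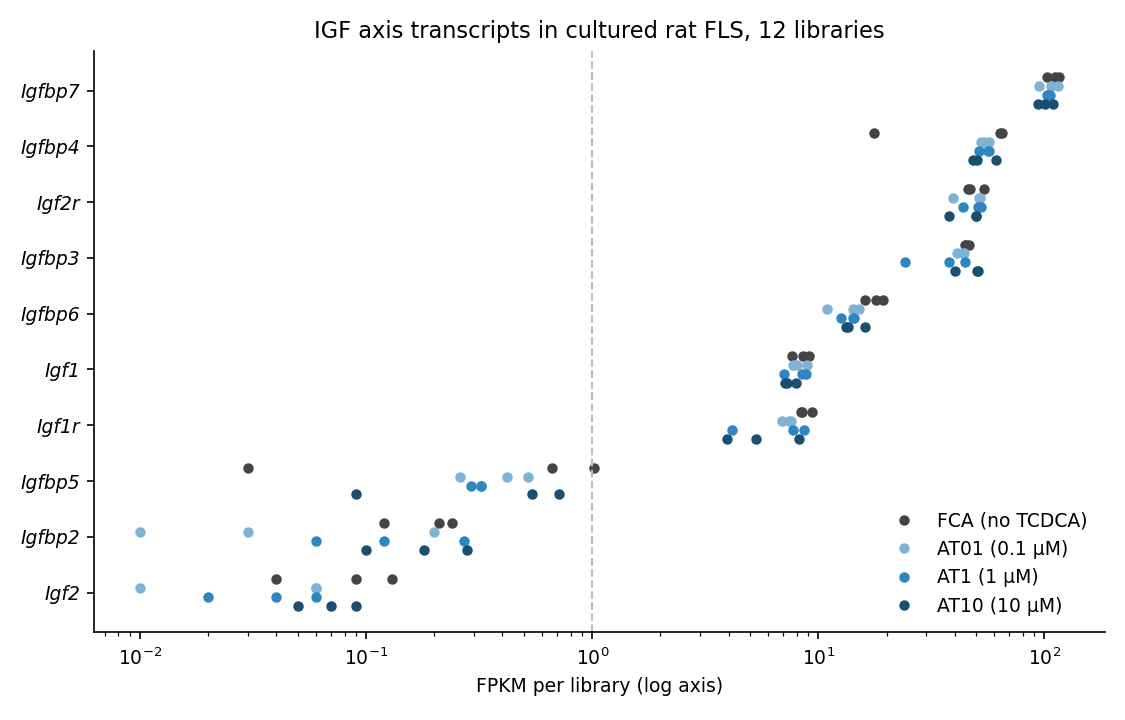
FPKM of the 10 genes of the IGF axis (rows, in order of mean) in each of the 12 libraries, on a log axis, with the groups in colour and a dashed line at 1 FPKM. 7 genes sit above the line in every library, and Igfbp5, Igfbp2 and Igf2 sit below it except for Igfbp5 in 1 FCA library at 1.02.

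The 6 binding proteins summed to between 181.3 and 246.4 FPKM per library, with a median of 214.3. Igfbp7, whose protein binds IGFs only weakly, made up between 45.0% and 56.3% of that sum. Igfbp4 made up a median of 25.6%, Igfbp3 of 19.7% and Igfbp6 of 6.77%, while Igfbp5 and Igfbp2 stayed at or under 0.427% and 0.136%. The sum was between 22.8 and 29.7 times the FPKM of Igf1 in the same library, with a median of 27.9. Igf2r was between 4.91 and 12.3 times the FPKM of Igf1r, with a median of 6.27. Igfbp1, the hepatic binding protein, is not among the 10 and was listed at 0 in all 12 libraries.

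**Figure D2:**
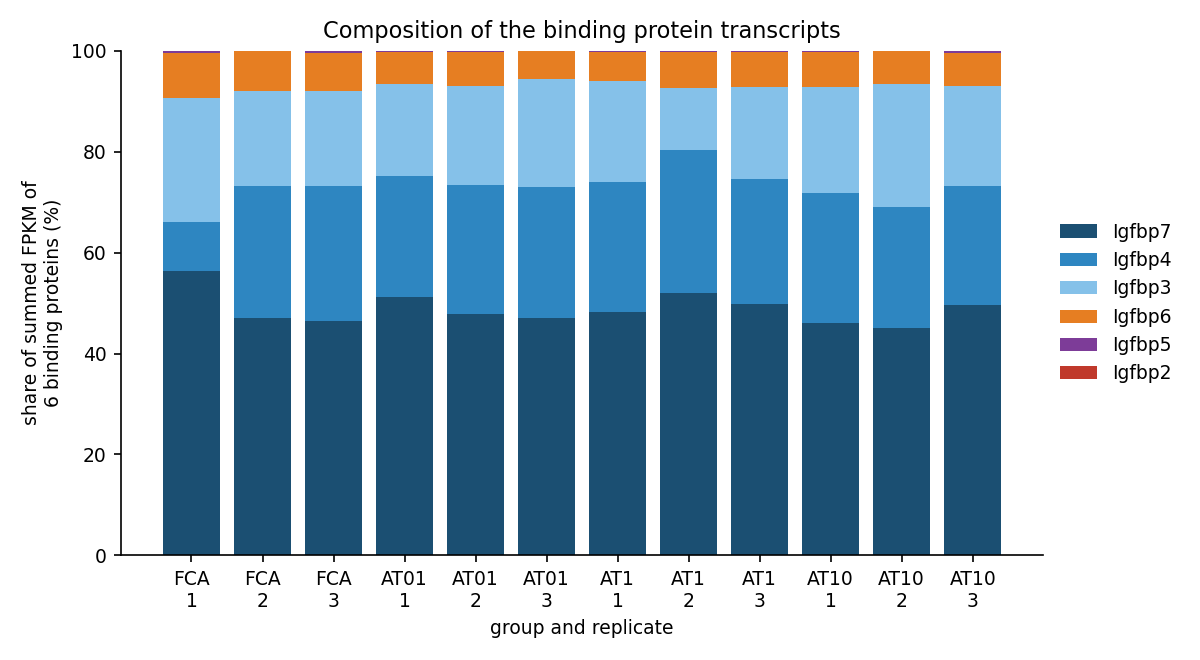
Share of each binding protein in the summed FPKM of the 6, in percent, as 1 stacked bar per library. Igfbp7 takes 45.0% to 56.3% of every bar, and the bar of FCA replicate 1 differs from the others in its narrow Igfbp4 segment of 9.75%.

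The cells carried the transcripts of the labelled cell type. Of 10 FLS markers, 8 were measured and all were above 1 FPKM on average, among them Vim, Col1a1, Thy1, Prg4 and Cdh11. Of 6 endothelial markers, 5 were measured and none passed 0.12 FPKM in any library. Of 8 macrophage markers, 5 were measured. Csf1r, Adgre1 and Mrc1 stayed at or under 0.26 FPKM, Cd68 lay between 1.66 and 2.91, and Cd14 lay between 3.60 and 18.8. FCA and TCDCA libraries could still differ in the state of the cells, and in bulk RNA fewer cells of a type and less RNA per cell cannot be told apart. Some markers differed in value between FCA and TCDCA libraries, none at an adjusted p under 0.05 by limma. The summed FPKM of 4 smooth muscle and pericyte markers was 307 to 410 in the FCA libraries and 159 to 303 in the TCDCA libraries, none of them at 0. Most of it was Acta2, the smooth muscle actin of myofibroblasts, and the other 3 did not follow it, with pooled log2 differences of 0.05 for Des, 0.02 for Cnn1 and -0.02 for Myh11. The median over the 4 was 0.00. By limma, Acta2 was 0.54 lower on the log2 scale with TCDCA (unadjusted p = 0.0171, adjusted p = 0.347), and it was lower in 9 of 9 TCDCA libraries than in every FCA library. Of the 8 FLS markers, 6 had pooled estimates below 0 and 2 above, with a median of -0.16, against 0.00 over all records. Their summed FPKM was 3976 to 4577 in FCA, 3639 to 4153 in AT01, 3985 to 4106 in AT1 and 3002 to 4281 in AT10. Of these, Thy1, an FLS surface marker, was lower by 0.22 (adjusted p = 0.356 by limma). Fap, a protease of activated fibroblasts, was higher by 0.30 (adjusted p = 0.295), each in 9 of 9. Over all tested records, 9 of 9 TCDCA libraries lay under every FCA library for 1.90% and over every FCA library for 0.956%. The summed levels of 5 chondrocyte markers were 8.01 to 10.1 FPKM in FCA and 4.73 to 8.54 with TCDCA, with Col2a1 at or under 0.01. Those of 5 adipocyte markers were 81.5 to 96.3 and 78.4 to 105.4. Of 3 chondrocyte markers tested, 3 had pooled estimates below 0. Among them Acan was lower by 0.31 (adjusted p = 0.347 by limma), in 9 of 9. Of 4 adipocyte markers tested, 3 had pooled estimates below 0 and 1 above. Plin1 was lower by 0.235 (adjusted p = 0.353 by limma), in 8 of 9. At least 8 of 9 were lower for 5.51% of all records. The part of these shifts in the results below was not tested.

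Against FCA, no member of the axis passed the test at any dose. Tests were run with limma on log2(FPKM + 1) over the 11611 records that averaged 1 FPKM or more, which took in 7 of the 10 genes. At a Benjamini-Hochberg adjusted p under 0.05, 0 of 7 were called in AT10, AT1 or AT01, where 0.172%, 0.0947% and 0.0947% of all tested records were called. The cut-off that the study used was a fold change beyond 1 in either direction on the log2 scale with an unadjusted p under 0.05. The study applied it with Ballgown, and here it was applied to the limma p-values and differences of log2(FPKM + 1). By it, again 0 of 7 were called at each dose, against 0.706%, 0.620% and 0.758% of all records. At an unadjusted p under 0.05 alone, 1 of 7 was called in AT10 (Igfbp6), 1 of 7 in AT1 (Igfbp6) and 2 of 7 in AT01 (Igfbp6 and Igf1r), against 11.9%, 11% and 6.60% of all records. A Ballgown-style F test called 0 of 7 at an adjusted p under 0.05 in each comparison, and 0, 0 and 1 (Igf1r) at an unadjusted p under 0.05 in AT10, AT1 and AT01. By that test 10.4%, 6.83% and 5.71% of all records had an unadjusted p under 0.05, and 0.00861%, 0.00% and 0.00861% passed the adjusted threshold. Of the 21 estimates by limma, 16 lay under 0 and 5 above. The median log2 difference of the 7 genes was -0.11 for AT10, -0.07 for AT1 and -0.06 for AT01, against -0.01, 0.02 and 0.00 over all records. The smallest p an exact permutation test can give for 3 libraries against 3 is 0.1, so that test could not pass 0.05 at a single dose.

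When the 9 TCDCA libraries were pooled against FCA, 0 of 7 genes were called at an adjusted p under 0.05 by limma, against 0.0258% of all records. At an unadjusted p under 0.05, 1 of 7 was called (Igfbp6), against 12%. The Ballgown-style test also called 1 (Igfbp6), against 8.51% of all records. For a trend over the order FCA, AT01, AT1 and AT10, 0 of 7 passed the adjusted threshold, as did 0.00% of all records, and 1 of 7 (Igf1r) had an unadjusted p under 0.05, against 11.2%.

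**Figure D3:**
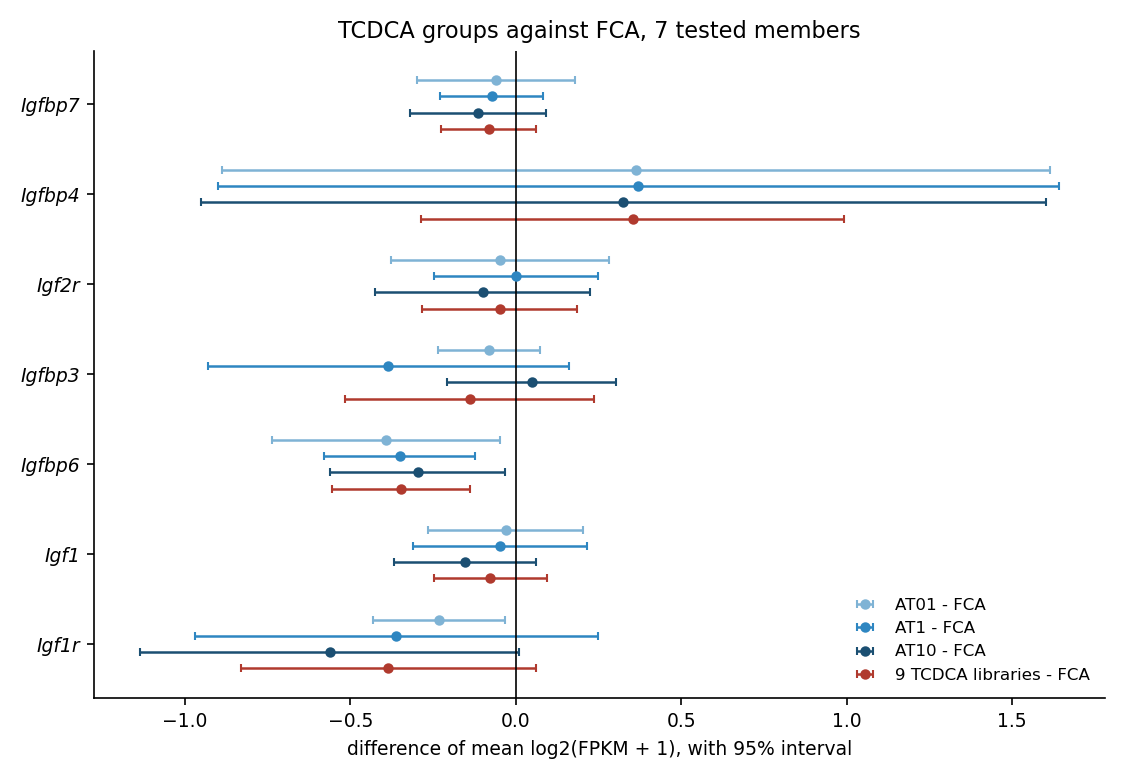
Difference of mean log2(FPKM + 1) between each TCDCA group and FCA (blue) and between all 9 TCDCA libraries and FCA (red) for the 7 tested genes, with 95% intervals from limma. The intervals of Igfbp6 lie under 0 at every dose, and those of Igfbp4 are the widest.

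Igfbp6 was the member with the lowest p-values. Its protein binds IGF2 in preference to IGF1. It stood at 16.11, 19.37 and 17.90 FPKM in the FCA libraries and at 16.14, 13.26 and 13.55 in AT10. In AT1 it was at 12.62, 14.16 and 14.40, and in AT01 at 14.24, 15.05 and 10.91. The AT1 and AT01 groups lay wholly under FCA, and in AT10 only replicate 1 reached the lowest FCA library. The group means were 17.8 ± 1.63 FPKM (SD, n = 3) in FCA, 14.3 ± 1.59 in AT10, 13.7 ± 0.966 in AT1 and 13.4 ± 2.19 in AT01.

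On the log2 scale Igfbp6 was lower by limma in each TCDCA group, by 0.30 ± 0.11 (SE) in AT10 (unadjusted p = 0.0336, adjusted p = 0.381), by 0.35 ± 0.092 in AT1 (unadjusted p = 0.00982, adjusted p = 0.420) and by 0.39 ± 0.14 in AT01 (unadjusted p = 0.0322, adjusted p = 0.720). None of these passed the adjusted threshold. The difference of the 9 TCDCA libraries together was -0.35 (95% interval -0.56 to -0.14, unadjusted p = 0.00370, adjusted p = 0.296), with an exact permutation p of 0.00909. Of the TCDCA libraries, 8 of 9 were lower than every FCA library, which was also true of at least 8 in 5.51% of all records. The doses differed little from each other. AT10 minus AT1 was 0.05 (95% interval -0.19 to 0.30), AT10 minus AT01 0.10 (-0.26 to 0.45) and AT1 minus AT01 0.04 (-0.29 to 0.37), so a difference between doses as large as that from FCA lay within 2 of the 3 intervals. The slope over dose steps was -0.08 (95% interval -0.19 to 0.02). Leaving out single libraries gave slopes from -0.12 (without AT10 replicate 1) to -0.05 (without FCA replicate 2). Of the markers given above, Acta2, Thy1, Acan and Plin1 had lower pooled values with TCDCA and Fap higher, none at the adjusted threshold. Their part in the Igfbp6 values was not tested.

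Igf1r, the signalling receptor, also had lower group means with TCDCA, but unevenly. It was at 9.36, 8.34 and 8.43 FPKM in FCA, at 5.27, 8.20 and 3.92 in AT10, at 7.68, 8.63 and 4.15 in AT1, and at 6.88, 7.39 and 7.55 in AT01. AT10 replicates 1 and 3 and AT1 replicate 3 stood well under the other 9 libraries. AT01, with no such low library, still lay wholly under FCA, while AT1 overlapped it through replicate 2. On the log2 scale the difference from FCA by limma was -0.56 ± 0.23 (SE) in AT10 (unadjusted p = 0.0532, adjusted p = 0.426), -0.36 ± 0.24 in AT1 (unadjusted p = 0.194, adjusted p = 0.582) and -0.23 ± 0.081 in AT01 (unadjusted p = 0.0304, adjusted p = 0.720). With the 9 TCDCA libraries together the difference was -0.38 (95% interval -0.83 to 0.06, unadjusted p = 0.0838, adjusted p = 0.475 by limma). The slope was -0.18 ± 0.073 per dose step (unadjusted p = 0.0284, adjusted p = 0.405). Without AT10 replicate 3 it was -0.13, with an unadjusted p of 0.108, and without FCA replicate 1 or AT10 replicate 1 its unadjusted p was 0.0681 or 0.0622. Without AT1 replicate 3 the AT1 difference shrank to -0.09, and without AT10 replicate 3 the AT10 difference to -0.35.

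Igf2r, the clearance and mannose-6-phosphate receptor, did not part from FCA. It was at 45.92, 53.97 and 47.01 FPKM in FCA, at 49.88, 49.73 and 37.98 in AT10, at 43.74, 52.37 and 50.98 in AT1, and at 51.32, 39.53 and 51.90 in AT01. All groups overlapped. The pooled log2 difference of the 9 TCDCA libraries was -0.05 (95% interval -0.28 to 0.19, adjusted p = 0.873 by limma).

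Of the ligands, Igf1 was measured well and varied little. It was at 7.63, 8.52 and 9.04 FPKM in FCA, at 7.99, 7.24 and 7.11 in AT10, at 8.80, 7.06 and 8.48 in AT1, and at 7.70, 8.01 and 8.87 in AT01, with a coefficient of variation of 8.75% over the 12 libraries. Its largest difference from FCA was in AT10, -0.15 on the log2 scale (95% interval -0.37 to 0.06, adjusted p = 0.526 by limma), and the groups overlapped. Igf2 lay between 0.01 and 0.13 FPKM in every library, under the limit for testing. At values this close to the last decimal of the table, no difference between groups was read.

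Igfbp7 and Igfbp3 did not pass either. Igfbp7 was at 102.1, 115.7 and 111.1 FPKM in FCA and at 109.4, 93.69 and 100.8 in AT10, with AT1 between 102.9 and 106.2 and AT01 between 94.96 and 115.0. It had the smallest coefficient of variation of the 10 genes, 6.65%, and a pooled log2 difference of -0.08 (95% interval -0.23 to 0.06, adjusted p = 0.638 by limma). Igfbp3, whose protein carries most circulating IGF, was at 44.62, 46.27 and 44.81 FPKM in FCA, at 50.04, 51.00 and 40.13 in AT10, at 44.47, 24.19 and 37.78 in AT1, and at 41.02, 43.84 and 43.39 in AT01. The AT1 and AT01 libraries lay under every FCA library, and 2 of 3 AT10 libraries lay over them. AT1 replicate 2 was the lowest of all. The log2 difference was -0.38 ± 0.22 (SE) in AT1 (adjusted p = 0.521 by limma), -0.08 ± 0.063 in AT01 (adjusted p = 0.820) and 0.05 ± 0.10 in AT10 (adjusted p = 0.857). Without AT1 replicate 2 the AT1 difference was -0.14.

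Igfbp4, the substrate of PAPP-A, showed how far a single library could carry an estimate. It was at 17.67, 64.79 and 63.86 FPKM in FCA, at 61.28, 50.08 and 48.19 in AT10, at 56.66, 55.99 and 51.38 in AT1, and at 53.82, 56.90 and 52.48 in AT01. FCA replicate 1 stood 1.40 under the next library on the log2 scale, and all 9 TCDCA libraries lay between it and the other FCA libraries. With all libraries, Igfbp4 was 0.35 higher with TCDCA (95% interval -0.29 to 0.99, unadjusted p = 0.252, adjusted p = 0.646 by limma). Without FCA replicate 1 the sign turned. The difference was then -0.25 for the 9 TCDCA libraries (unadjusted p = 0.0121, adjusted p = 0.440), -0.28 in AT10, -0.23 in AT1 and -0.24 in AT01. No direction was therefore given to Igfbp4. A library that stood apart from the other 11 by at least 1 on the log2 scale, and by more than their whole range, was found for 2.17% of tested records, 15 of them in FCA replicate 1.

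**Figure D4:**
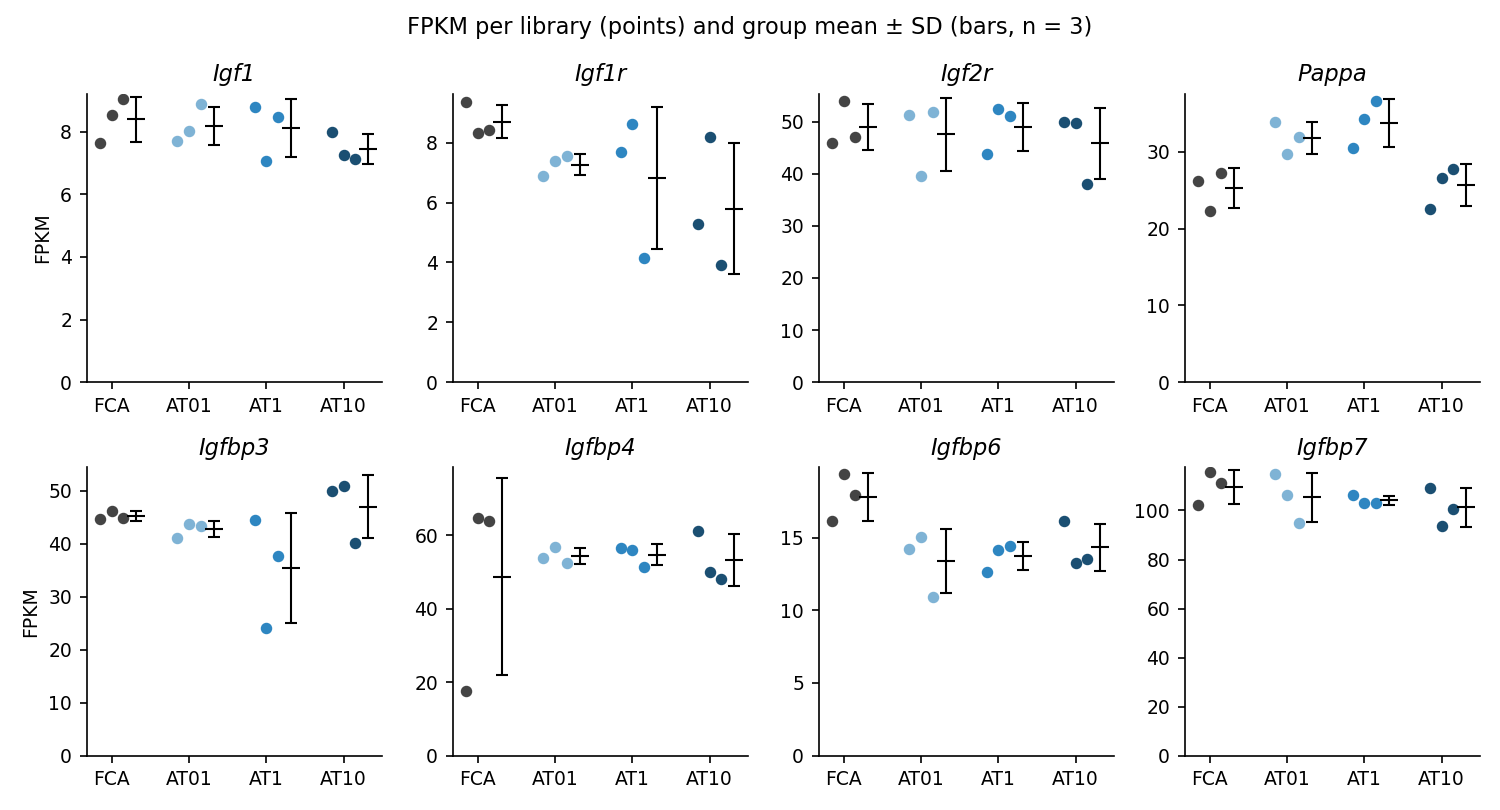
FPKM of the 7 tested genes and of Pappa, the protease of Igfbp4, by group. Points are libraries and bars the group mean ± SD (n = 3), with each axis starting at 0. Igfbp6 is lower in 8 of 9 TCDCA libraries than in every FCA library, Igfbp4 has 1 low FCA library at 17.67, and Pappa is higher in AT01 and AT1 than in FCA and AT10.

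The remaining binding proteins were near the floor of the table. Igfbp5, which binds matrix and hydroxyapatite, was at 0.66, 0.03 and 1.02 FPKM in FCA and between 0.09 and 0.71 with TCDCA. Igfbp2 was between 0.12 and 0.24 in FCA and between 0.01 and 0.28 with TCDCA. The groups overlapped for both, and both were under the limit of 1 FPKM for the main test. In RefSeq, Igfbp2 and Igfbp5 are neighbours on chromosome 9, so the pair of low genes lies together. Igfbp3 is the neighbour of Igfbp1 on chromosome 14, and there a gene at 42.6 FPKM stood next to a gene listed at 0.

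Groups without overlap were counted as well. In AT10 against FCA this held for 1 of 7 genes (Igf1r), in AT1 for 2 of 7 (Igfbp6 and Igfbp3) and in AT01 for 3 of 7 (Igf1r, Igfbp6 and Igfbp3), each with the TCDCA group lower. Over all tested records the share was 19.9%, 19.9% and 14.0%. The 3 comparisons share the FCA libraries.

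Between doses, 0 of 7 genes passed the adjusted threshold by limma in AT10 against AT1, AT10 against AT01 or AT1 against AT01, where 0.258%, 0.0689% and 0.129% of all records did. At an unadjusted p under 0.05 the count was also 0 of 7 in each, against 6.46%, 4.97% and 3.43%, and the Ballgown-style test called 0 as well, against 8.79%, 5.22% and 5.93%. The 21 differences lay between -0.33 (Igf1r, AT10 minus AT01) and 0.43 (Igfbp3, AT10 minus AT1). Their 95% intervals reached from -1.01 to 1.02, so differences of up to that size lay within the widest of them.

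The genes around the axis were taken from 5 lists. The first held the insulin receptor family, its substrates and partners of Igf2. Of 12 names, 10 were measured and 3 tested. The insulin receptor Insr had a mean of 2.07 FPKM (range 1.87 to 2.23), under Igf1r in every library. Irs2, a substrate of both receptors, had a mean of 3.84 and the Irs1 record of 0.907. Igfals, which completes the circulating ternary complex, stayed at or under 0.10. Pooled over TCDCA doses, 0 of 3 were higher and 1 of 3 lower at an unadjusted p under 0.05, and 0 of 3 passed the adjusted threshold. Over all records, 5.86% were higher and 6.15% lower at that unadjusted p in the pooled comparison, and 0.0258% passed the adjusted threshold. The lower gene was Igf2bp2, an RNA-binding protein of Igf2 mRNA, at -0.22 (adjusted p = 0.404 by limma). The median over the list was 0.01, and over all records 0.00.

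Proteases of the binding proteins were abundant. Htra1, a secreted serine protease, had a mean of 427.0 FPKM (range 383.5 to 470.1), and Adam12, a metalloprotease, of 106.4. Of 9 proteases and inhibitors measured, 7 were tested, and 0 of 7 passed the adjusted threshold in any comparison. In the pooled comparison, 1 of 7 was higher at an unadjusted p under 0.05 and 0 of 7 lower, against 5.86% and 6.15% of all records, and the median was -0.03. The higher gene was Adam12, at 0.17 (adjusted p = 0.356 by limma). In AT10 against AT1, 3 of 7 were lower at an unadjusted p under 0.05, against 3.74% of all records. They were Pappa, Adam9 (-0.22, unadjusted p = 0.0295 by limma) and Htra3 (-0.27, unadjusted p = 0.0449).

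Pappa, which encodes PAPP-A, had its highest values in AT1 and AT01. It was at 26.24, 22.31 and 27.21 FPKM in FCA and at 22.54, 26.58 and 27.81 in AT10. In AT1 it was at 30.50, 34.24 and 36.63, and in AT01 at 33.87, 29.69 and 31.88. Every AT1 and AT01 library lay over every FCA and AT10 library. This split was read after the values were seen, and its share over all records was not counted. Groups without overlap with FCA were found for 19.9% of all tested records in AT1 and 14.0% in AT01. By limma the log2 difference from FCA was 0.41 ± 0.11 (SE) in AT1 (unadjusted p = 0.00955, adjusted p = 0.420), 0.32 ± 0.10 in AT01 (unadjusted p = 0.0194, adjusted p = 0.696) and 0.02 ± 0.11 in AT10 (unadjusted p = 0.861, adjusted p = 0.952). AT10 was lower than AT1 by 0.39 (unadjusted p = 0.0132, adjusted p = 0.702) and lower than AT01 by 0.30 (unadjusted p = 0.0286, adjusted p = 0.867). None of these passed the adjusted threshold. Stc1, an inhibitor of PAPP-A, was at 33.87 FPKM in FCA replicate 2 and at 42.42 in AT1 replicate 1, and between 7.42 and 13.3 in the other 10 libraries.

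Of 23 genes of PI3K-AKT-MAPK signalling, 22 were measured and tested. Against FCA with all TCDCA libraries pooled, 1 of 22 was higher and 2 of 22 lower at an unadjusted p under 0.05, where 5.86% and 6.15% of all records were. Of the 22, 0 passed the adjusted threshold, against 0.0258%, and the median was 0.01. The catalytic subunit Pik3ca was higher by 0.22 (adjusted p = 0.338 by limma). The kinase Mapk3 (ERK1) was 0.29 lower (adjusted p = 0.311), at 47.55 to 65.20 FPKM in FCA and 38.79 to 51.68 with TCDCA. Grb10, an adaptor that restrains IGF1R and the insulin receptor, was 0.23 lower (adjusted p = 0.380). For 3 of the 22 genes, Grb10, the adaptor Grb2 and the kinase Akt2, all 9 TCDCA libraries lay under every FCA library, against 1.90% of all records. Grb2 (-0.26, unadjusted p = 0.280 by limma) and Akt2 (-0.28, unadjusted p = 0.127) missed the unadjusted threshold.

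FOXO factors are switched off by AKT, so transcripts they drive are a common readout of the pathway. Of 12 such genes, 11 were tested, 2 of them (Irs2 and Insr) shared with the first list. Of the pooled differences, 8 of 11 had estimates above 0 and 3 below, where 50.7% of all records lay above 0. The median was 0.01, 1 of 11 was higher at an unadjusted p under 0.05, against 5.86% of all records, and 0 of 11 passed the adjusted threshold, against 0.0258%. That gene was Ccng2, a cyclin of growth arrest, at 0.55 (adjusted p = 0.374 by limma), with 2.53 to 4.91 FPKM in FCA and 2.49 to 6.92 with TCDCA. Sesn1, a stress-induced inhibitor of mTORC1, followed at 0.09 (adjusted p = 0.611).

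The last list held 11 other secreted proteins with an IGFBP-type domain, such as the CCN proteins, of which 10 were tested, Htra1 and Htra3 being shared with the proteases. These included the only listed genes to pass the adjusted threshold, each between doses and neither against FCA. Esm1, a secreted proteoglycan also called endocan, was 2.48 lower in AT10 than in AT1 (adjusted p = 0.00298 by limma). It was at 23.52, 23.42 and 25.53 FPKM in AT10 and at 150.3, 115.0 and 155.3 in AT1, but FCA replicate 3 (21.48) and AT01 replicate 3 (16.53) were low too, beside 4 FCA and AT01 libraries between 126.2 and 139.8. Cyr61 (CCN1) was 0.93 higher in AT1 than in AT01 (adjusted p = 0.0390), at 391.3, 421.2 and 375.4 FPKM against 192.7, 218.3 and 213.0. In AT10 it was spread over 235.2, 490.2 and 181.9 FPKM, and in FCA it lay between 255.2 and 464.6. For TCDCA pooled against FCA, 0 of 10 had an unadjusted p under 0.05, against 12%, and the median was -0.08.

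The genes whose values ran most alike to each member over the 12 libraries were found by Pearson's r of log2(FPKM + 1). For Igfbp6 they were Strn4 (r = 0.944, Spearman's rho = 0.930) and Irf2bp2 (r = 0.931, rho = 0.853), for Igfbp7 Hyi (0.934, rho = 0.923) and Stk19 (0.906, rho = 0.832), and for Igf1 Ppp1r13b (0.878, rho = 0.846) and Rai2 (0.80, rho = 0.797). For Igf1r they were Brox (0.865, rho = 0.545) and Gtse1 (0.854, rho = 0.820), and for Igf2r the first was LOC108348044 (0.909, rho = 0.748). For Igfbp3 they were Rab1b (0.915, rho = 0.601) and Bola1 (0.905, rho = 0.476), and for Igfbp4 Tmem101 (0.976, rho = 0.734) and Gabarap (0.966, rho = 0.720). Igfbp4 and Igfbp3 each had a low library, FCA replicate 1 and AT1 replicate 2, whose part in these r values was not tested. By Spearman's rho the same 2 genes led for Igf1 alone. Each was picked from all tested records for its high r over the same 12 libraries, so these values describe the table and carry no test. Both genes of a pair also share the depth and preparation of each library.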

How the data were processed

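Poly(A) RNA of 12 FLS libraries, 3 in each of the FCA, AT10, AT1 and AT01 groups, was sequenced. Groups were taken from the sample labels. The authors trimmed the reads (cutadapt, per the processing notes of the submitters), aligned them with HISAT2, assembled and merged transcripts with StringTie, computed expression levels with StringTie and Ballgown, and deposited a table of 22442 gene records with the FPKM of each library, rounded to 2 decimals. edgeR is also named in the notes, with no role given. The genome build and any scaling between libraries are not given in the sources used here. The study lists the reads of each library, which differ and are most numerous in AT01 replicate 3. The fragments behind a single value are unknown from the table, so no counting interval was given. FPKM sums lay between 284210 and 309696 per library.

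Values were transformed as log2(FPKM + 1), which understates the change of low genes. The 11611 records that averaged 1 FPKM or more entered limma 3.58.1 (lmFit, eBayes with a trend) in R 4.3.3, 2 groups at a time, for the 9 TCDCA libraries against FCA, and for a slope over FCA, AT01, AT1 and AT10 taken as 0, 1, 2 and 3. Adjusted p-values are Benjamini-Hochberg over all tested records. Exact permutation tests were two-sided. Scripts were tested on simulated data. Python 3.11.15, pandas 2.3.3, NumPy 2.4.6, SciPy 1.17.1 and Matplotlib 3.10.9 were used.

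The members and gene lists were chosen with earlier results of these data known. All 10 members were named. Of each list, genes were named that had an adjusted p under 0.05 in any comparison or met the criterion of the study against FCA, otherwise the 2 of smallest unadjusted p with the 9 TCDCA libraries together, and other genes were named after their values were seen. For each tested member the 2 most alike genes were named, except that 1 gene is not reported here. Of the genes listed, 12 had no record by that name and were not analysed here. Promoters were taken from RefSeq (GRCr8), where all 10 members matched, Igf2 with 2 promoters. The alternatives were 0.1 as pseudocount, all records above 0, a limit of 10 FPKM, a joint fit of the 4 groups, scaling by median of ratios, summing the records of a gene name, a Ballgown-style F test, a replicate block, leaving out single libraries, and rank correlation for likeness.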

Additional observations from a re-analysis of the deposited data

Results flagged for a closer look

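Among the 9 TCDCA libraries, Igfbp3 in AT1 replicate 2 stood apart from the rest. At 24.19 FPKM it was under the next library, AT1 replicate 3 at 37.78, by 0.507 of the whole range of the 9, where the 95% limit for 9 values is 0.49. The other 6 tested members had no such library among the 9, at either end. For 1 gene looked at on both sides, chance alone flags about 1 in 20 such groups of 9 values. With 7 genes looked at, at least 1 flag by chance is more frequent than that. The 9 values also pool the AT10, AT1 and AT01 groups. The low Igfbp4 value in FCA replicate 1 lies in a group of 3, to which this test was not applied.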

How the results depend on the processing

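No member passed an adjusted p under 0.05 or the criterion of the study in any of the 8 comparisons under any alternative, and the smallest adjusted p against FCA or over dose steps was 0.170, with a library left out. Igf1 and Igf1r were not tested under the limit of 10 FPKM. Of 256 log2 values of members against FCA or over dose steps under the other settings, 251 kept their sign. The exceptions were Igf2r in AT1 with median-of-ratios scaling (-0.019), and, with the Ballgown-style test, Igfbp4 in AT1 (-0.30), Igf2r (0.021) and Igfbp3 (0.015) with the 9 TCDCA libraries together, and the Igfbp3 slope (0.041). Igfbp6 kept its sign throughout. Leaving out each library in turn turned 21 of 294 values. The log2 differences then ranged, in AT10 against FCA, from -0.16 to 0.028 for Igf2r, from -0.013 to 0.16 for Igfbp3 and from -0.28 to 0.63 for Igfbp4. In AT1 they ranged from -0.11 to 0.040 for Igf1, from -0.048 to 0.080 for Igf2r and from -0.23 to 0.68 for Igfbp4. In AT01 they ranged from -0.091 to 0.018 for Igf1, from -0.11 to 0.078 for Igf2r, from -0.24 to 0.67 for Igfbp4 and from -0.12 to 0.014 for Igfbp7. With the 9 TCDCA libraries together they ranged from -0.092 to 0.022 for Igf2r and from -0.25 to 0.66 for Igfbp4. The slopes ranged from -0.039 to 0.012 for Igf2r, from -0.055 to 0.012 for Igfbp3 and from -0.074 to 0.16 for Igfbp4. The negative Igfbp4 values came from leaving out FCA replicate 1. For the others the cause was not tested. The unadjusted p of Igfbp6 rose to as much as 0.101 in AT10 and 0.0966 in AT01 with a library left out (FCA replicate 2 or 3, or AT10 replicate 2 or 3, and FCA replicate 2 or 3, or AT01 replicate 3), and stayed at or under 0.0321 in AT1 and 0.0274 with the 9 TCDCA libraries together. That of Igf1r in AT01 rose to as much as 0.103 (without FCA replicate 1 or 3, or AT01 replicate 1 or 2). Under the other settings the largest unadjusted p by limma or the Ballgown-style test was 0.124 for Igfbp6 in AT10, 0.105 in AT1, 0.0684 in AT01 and 0.00861 with the 9 TCDCA libraries together, and for Igf1r 0.383 in AT01 and 0.0976 for the slope.

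The study describes the replicate numbers as sets of repeated studies. No pairing by number was seen in the values, which does not show that the libraries were unpaired. The correlation of deviations between the 18 pairs of the same number was between -0.105 and 0.0942, and none was over 0.1. Between the 36 pairs of different number it was between -0.154 and 0.149, and 1 was over 0.1. With the replicate number as a block, 0 members passed the adjusted threshold in each comparison, 0 had an unadjusted p under 0.05 in AT10 and 1 did in AT1, in AT01, with the 9 TCDCA libraries together and over dose steps. Of all records, 10.7%, 9.69%, 5.49%, 12.4% and 12% did. The pooled Igfbp6 difference with the block was -0.35 (adjusted p = 0.290 by limma). Igfbp5, Igfbp2 and Igf2 were under the limit of 1 FPKM and were fitted only without that limit, where 0 of 24 differences had an unadjusted p under 0.05 (smallest unadjusted p = 0.0975, smallest adjusted p = 0.613 by limma).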
